A study of Mus musculus with 18 samples.

Results

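The genes described here are 9 markers of smooth muscle and of pericytes, chosen by name among the 38243 genes counted in 18 RNA-seq libraries of the embryonic mouse jaw. Of these, 5 encode parts of the contractile apparatus, *Acta2*, *Tagln*, *Myh11*, *Cnn1* and *Myl9*, and 4 mark pericytes and their progenitors, *Rgs5*, *Pdgfrb*, *Cspg4* and *Mcam*. The libraries came from 6 female C57BL/6 embryos at embryonic day 16.5, 3 *Fgfr2+/S252W* and 3 *Fgfr2+/+*. The *Fgfr2+/S252W* embryos carry, on 1 allele, the *Fgfr2* substitution of Apert syndrome and serve as its mouse model (labeled Fgfr2S252W), and the *Fgfr2+/+* embryos are unaffected littermates. Mandibular bone, Meckel's cartilage (MC) and mandibular condylar cartilage were each cut from frozen sections of the head by laser capture microdissection. This gave 6 groups of genotype and tissue with 3 libraries each, 1 embryo per library and no pooling. A captured piece holds every cell type that lay within the cut, and in such bulk samples fewer cells of a type and less RNA per cell cannot be told apart.

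Smooth muscle cells and pericytes are the mural cells that wrap blood vessels, smooth muscle around arteries and veins and pericytes around capillaries. Endothelial cells release PDGF-B, which recruits mural cells through the receptor PDGFRβ, the product of *Pdgfrb*. In contractile cells the serum response factor SRF, with its partner myocardin, binds CArG boxes in the promoters of genes such as *Acta2*. Embryonic bone is invaded by vessels that carry mural cells, whereas cartilage is largely free of vessels. Most of these markers are shared with other cells: *Acta2* and *Tagln* with myofibroblasts and immature muscle, *Pdgfrb* with fibroblasts and mesenchymal progenitors, *Cspg4* with chondrocytes and oligodendrocyte precursors, and *Mcam* with endothelium.

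The promoters of 4 members are shown because the genes differed in where they were expressed and because the CArG box is the element best known to tie the contractile genes together. The sequences are the bases before the transcription start in RefSeq (GRCm38.p6), written 5′ to 3′ along the gene, and capitals mark each CArG box, either with a core of 6 A or T or with 1 G or C in that core. For *Acta2* the window is chr19:34255374-34255623 on the minus strand, for *Myl9* chr2:156775214-156775419, for *Rgs5* chr1:169655251-169655500 and for *Cspg4* chr9:56864854-56865103, these on the plus strand. In *Myl9*, 44 of the 250 bases were left out because the annotation used for counting places them inside the gene.
Acta2: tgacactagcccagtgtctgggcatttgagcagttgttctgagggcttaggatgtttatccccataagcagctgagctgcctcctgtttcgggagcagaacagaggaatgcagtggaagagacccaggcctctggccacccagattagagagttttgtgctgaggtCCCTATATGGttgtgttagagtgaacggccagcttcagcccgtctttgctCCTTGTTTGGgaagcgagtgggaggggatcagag
Myl9: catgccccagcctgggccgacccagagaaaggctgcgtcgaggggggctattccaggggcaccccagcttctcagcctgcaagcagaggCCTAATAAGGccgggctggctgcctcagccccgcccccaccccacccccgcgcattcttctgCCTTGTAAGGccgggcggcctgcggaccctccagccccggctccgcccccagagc
Rgs5: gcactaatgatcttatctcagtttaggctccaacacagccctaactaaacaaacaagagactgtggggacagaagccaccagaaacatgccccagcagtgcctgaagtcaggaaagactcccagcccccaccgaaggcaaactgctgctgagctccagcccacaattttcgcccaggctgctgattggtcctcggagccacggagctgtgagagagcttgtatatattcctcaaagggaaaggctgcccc
Cspg4: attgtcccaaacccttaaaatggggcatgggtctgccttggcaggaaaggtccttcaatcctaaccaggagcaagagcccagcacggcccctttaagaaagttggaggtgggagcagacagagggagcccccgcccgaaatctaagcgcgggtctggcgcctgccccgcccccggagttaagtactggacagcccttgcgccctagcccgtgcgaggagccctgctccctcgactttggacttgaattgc
The *Acta2* window holds 2 boxes with 1 G or C in the core, which begin 84 and 34 bases before the start. The *Myl9* window holds 1 box of the strict form, 161 bases before the start, and 1 with 1 G or C, 99 bases before it. The windows of *Rgs5*, *Cspg4*, *Cnn1* and *Mcam* hold no such letters, which says nothing about other sequence. The box reads the same on both strands. Of all 32851 RefSeq promoters, 1.47% hold a strict box and 8.59% hold either form within 250 bases. A match of letters is a description and not a binding site. No promoter is shown for *Tagln*, *Myh11* and *Pdgfrb*.

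Between 8218548 and 15585778 read pairs (fragments) per library were counted on genes. Mitochondrial genes took 19.4% to 38.1% of a library. Their share was 35.95% and 34.8% in *Fgfr2+/+* bone libraries 1 and 2, 20.4% in library 3, and 23.4% to 23.6% in *Fgfr2+/S252W* bone. Levels are given as FPKM, fragments scaled to the length of the exons and to the size of the library, with library sizes normalized by the TMM method, so that genes can be compared per length. The limma test was run on the 11469 genes that exceeded 1 FPKM in 50% or more of the 18 libraries. A gene is said to pass, or to be higher or lower as a call, where its p after Benjamini-Hochberg adjustment over all genes was below 0.05. Of the 9 members, 7 were kept by this filter. *Myh11* and *Cnn1* were not and have levels only. Within a group, the median SD of a gene's log2 level was 0.22 in bone, 0.32 in condylar cartilage and 0.49 in MC. The fit of 18 libraries shares 1 estimate of spread per gene over the 6 groups. The spread in MC thus also enters the tests in bone. For the tested members, the standard error (SE) of the genotype effect was 0.25 to 0.45 in bone and 0.31 to 0.85 in MC.

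*Myh11*, which encodes the smooth muscle myosin heavy chain and is the strictest marker of differentiated smooth muscle, was close to absent (ENSMUSG00000018830, mm10 chromosome 16 from 14194527 to 14291408). It had 0 to 13 fragments per library and 64 fragments over all 18 libraries, and its highest level was 0.177 FPKM. *Cnn1*, which encodes calponin, an actin-binding protein of contracting smooth muscle (ENSMUSG00000001349, chromosome 9 from 22099281 to 22109630), had 0 to 9 fragments per library and 56 in all, with at most 0.353 FPKM. Both genes stayed under 1 FPKM in each of the 18 libraries. *Myh11* had no fragment in 5 libraries and *Cnn1* in 6. In these, a count of 0 allows up to 0.102 FPKM of *Myh11* and 0.285 FPKM of *Cnn1* (3 fragments, counting error only). *Myocd*, the gene of myocardin, had a median of 0.178 FPKM over the 6 bone libraries, 0.279 FPKM in condylar cartilage and 0 in MC. *Smtn*, the gene of smoothelin, another protein of contracting smooth muscle, had medians of 8.12, 19.5 and 15.4 FPKM in the same tissues. As 2 of the defining genes of differentiated smooth muscle were close to absent, the genes below are described by name and not as a measure of that cell type.

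**Figure D1:**
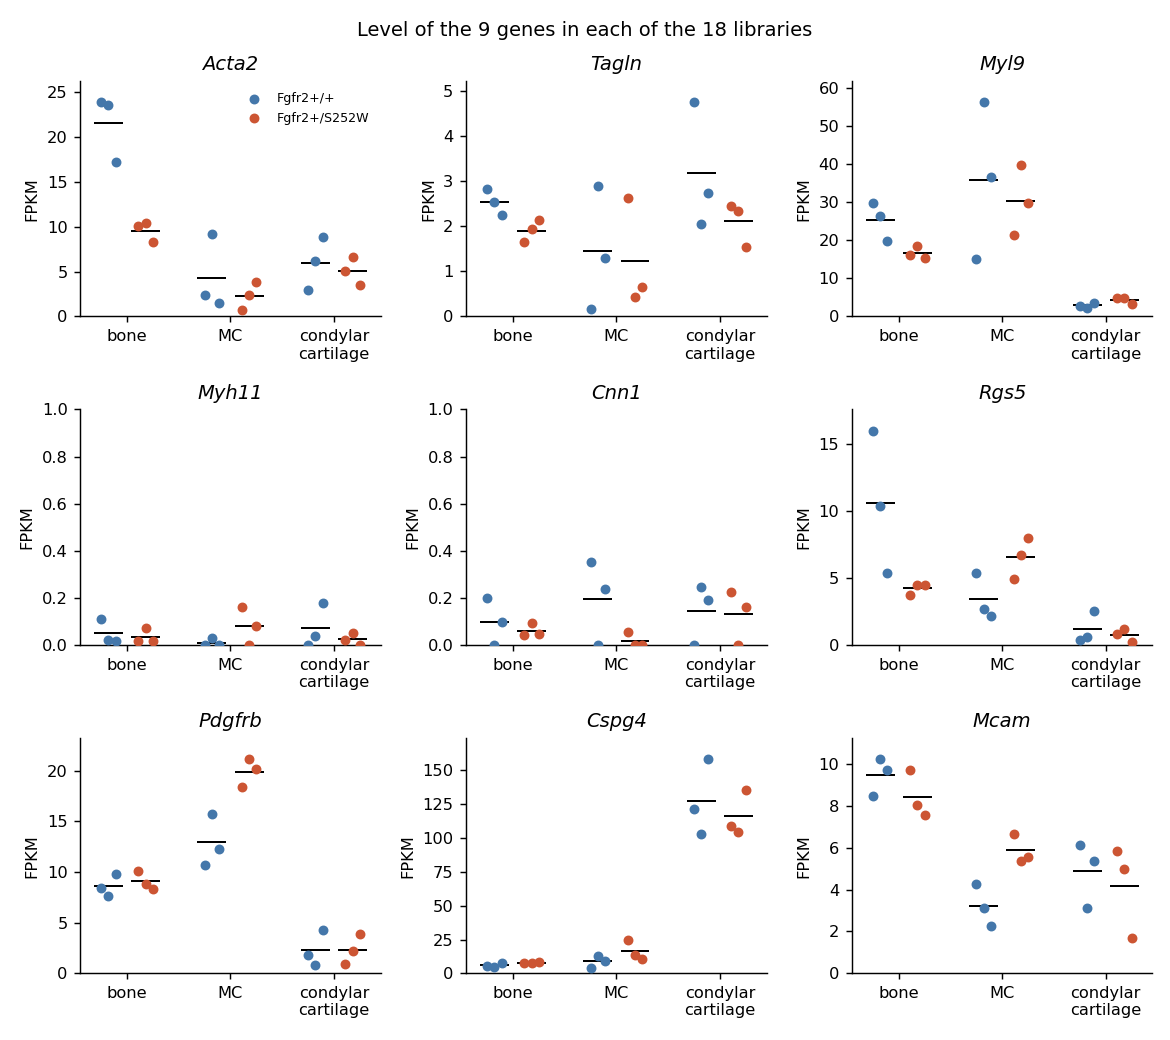
Level of each of the 9 genes in FPKM (vertical axes, linear, differing between panels) in the 3 tissues. Each point is 1 library, blue for *Fgfr2+/+* and red for *Fgfr2+/S252W*, and each bar is the mean of 3 libraries. *Acta2* is highest in *Fgfr2+/+* bone, *Cspg4* stands above 100 FPKM in condylar cartilage, and *Myh11* and *Cnn1* stay under 1 FPKM throughout.

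*Acta2*, which encodes α smooth muscle actin (ENSMUSG00000035783, chromosome 19 from 34241090 to 34255336), was the contractile gene most tied to bone. In *Fgfr2+/+* bone its level was 23.8, 23.6 and 17.2 FPKM in libraries 1, 2 and 3, from 543 to 634 fragments. In *Fgfr2+/+* MC the levels were 2.35, 9.13 and 1.47 FPKM, from 14 to 85 fragments, and in *Fgfr2+/+* condylar cartilage 2.91, 6.16 and 8.82 FPKM. All 3 bone libraries thus lay above all 6 cartilage libraries. On the log2 scale *Acta2* was 2.81 higher in bone than in MC (limma, SE 0.49, adjusted p = 2.47e-04; 3.41 without MC library 2) and 2.00 higher than in condylar cartilage (limma, SE 0.36, adjusted p = 1.96e-04). In *Fgfr2+/S252W* embryos the bone libraries also lay above those of either cartilage, at 8.23 to 10.4 FPKM against at most 3.83 in MC and 6.66 in condylar cartilage. Fragments that match several actin genes equally well were not counted, which leaves the level of *Acta2* uncertain.

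*Myl9*, which encodes the regulatory light chain of smooth muscle and non-muscle myosin (ENSMUSG00000067818, chromosome 2 from 156775420 to 156781658), separated condylar cartilage from the other tissues. The *Fgfr2+/+* levels were 29.8, 26.3 and 19.7 FPKM in bone, 15.1, 56.1 and 36.6 FPKM in MC and 2.86, 2.28 and 3.52 FPKM in condylar cartilage. The bone and MC libraries overlapped (log2 difference -0.21, 95% interval -0.87 to 0.46, limma adjusted p = 0.650; -0.86 and adjusted p = 0.00894 without MC library 1), and both lay above condylar cartilage. *Myl9* was 3.11 higher in bone than in condylar cartilage on the log2 scale (limma, SE 0.49, adjusted p = 4.24e-05). Between condylar cartilage and MC the log2 difference was -3.32 (limma, SE 0.50, adjusted p = 2.33e-05), and -3.94 without MC library 1.

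*Tagln*, which encodes transgelin (SM22α), an actin-binding protein that appears early in smooth muscle (ENSMUSG00000032085, chromosome 9 from 45929628 to 45936058), was low throughout. It had 2.83, 2.54 and 2.24 FPKM in *Fgfr2+/+* bone, 0.176, 2.89 and 1.30 FPKM in MC, from 3 to 24 fragments, and 4.74, 2.04 and 2.73 FPKM in condylar cartilage. One MC library lay far below the other two, and the MC libraries overlapped those of both other tissues. The log2 difference was 1.74 between bone and MC (limma, SE 0.67, adjusted p = 0.0499) and 2.01 between condylar cartilage and MC (limma, SE 0.67, adjusted p = 0.0196). Without MC library 1 they were 0.36 (limma adjusted p = 0.640) and 0.65 (limma adjusted p = 0.366). Of the 6 fits that left out 1 library each, the first passed only without MC library 2, and the second was lost without MC library 1 or condylar library 1, with adjusted p-values from 0.0181 to 0.640 and from 0.00587 to 0.366 (limma). With the embryo as a block the differences were 1.501 (limma adjusted p = 0.109) and 1.69 (limma adjusted p = 0.0594). *Tagln* shares 65 of its 1586 exon bases with *Pcsk7* on the opposite strand, and since counting ignored strand, fragments there were not assigned to either gene.

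In *Fgfr2+/+* bone against condylar cartilage, *Rgs5*, *Pdgfrb* and *Mcam* were higher in bone and *Cspg4* was lower. *Rgs5*, which encodes a regulator of G-protein signaling typical of pericytes (ENSMUSG00000026678, chromosome 1 from 169655501 to 169695813), had 15.96, 10.4 and 5.38 FPKM in *Fgfr2+/+* bone. In *Fgfr2+/+* MC it had 5.38, 2.71 and 2.15 FPKM and in condylar cartilage 0.385, 0.629 and 2.56 FPKM. Its order was bone, MC, condylar cartilage, with bone library 3 meeting the top of MC and the top of condylar cartilage reaching into MC. *Rgs5* was 1.45 higher in bone than in MC (limma, SE 0.47, adjusted p = 0.0226) and 3.52 higher than in condylar cartilage (limma, SE 0.58, adjusted p = 7.54e-05). The latter difference was 2.92 without condylar library 1 and 4.25 without condylar library 3 and passed in all 6 fits that left out 1 library each. Between condylar cartilage and MC the log2 difference was -2.07 (limma, SE 0.67, adjusted p = 0.0160), with -1.47 without condylar library 1 and -2.80 without condylar library 3. The difference from MC passed in 2 of the 6 fits that left out 1 library each, with adjusted p-values from 0.00293 to 0.0840 (limma), and that between the cartilages in 3 of 6, from 0.00804 to 0.111 (limma). In the first, the call was lost without bone library 1 or 2 or MC library 2 or 3, and in the second without MC library 1 or condylar library 1 or 2.

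*Pdgfrb*, the receptor for PDGF-B (ENSMUSG00000024620, chromosome 18 from 61045150 to 61085061), was low in condylar cartilage and had its highest levels in MC. It had 8.42, 7.65 and 9.78 FPKM in *Fgfr2+/+* bone, 10.7, 15.8 and 12.3 FPKM in MC and 1.87, 0.819 and 4.25 FPKM in condylar cartilage. All bone and MC libraries lay above all condylar libraries, by 2.22 on the log2 scale for bone (limma, SE 0.39, adjusted p = 1.24e-04), and by 1.63 without condylar library 2. For condylar cartilage against MC the log2 difference was -2.77 (limma, SE 0.40, adjusted p = 1.21e-05). The MC libraries also lay above those of bone without overlap, a log2 difference of -0.55 for bone against MC that did not pass (95% interval -1.19 to 0.10, limma adjusted p = 0.183). It passed in a fit of the bone and MC libraries alone (log2 difference -0.56, limma adjusted p = 0.0231).

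*Mcam*, which encodes the adhesion molecule CD146 of pericytes and endothelium (ENSMUSG00000032135, chromosome 9 from 44134562 to 44142727), was highest in bone. The *Fgfr2+/+* levels were 8.46, 10.2 and 9.69 FPKM in bone, 4.26, 3.13 and 2.27 FPKM in MC and 6.13, 3.10 and 5.38 FPKM in condylar cartilage. Bone lay above both cartilages without overlap, and the cartilages overlapped each other. The log2 difference was 1.503 from MC (limma, SE 0.37, adjusted p = 0.00370) and 1.00 from condylar cartilage (limma, SE 0.29, adjusted p = 0.0102). The latter was 0.70 (limma adjusted p = 0.0876) without condylar library 2.

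*Cspg4*, which encodes the proteoglycan NG2 (ENSMUSG00000032911, chromosome 9 from 56865104 to 56899870), was the most abundant member in condylar cartilage. It had 121, 103 and 158 FPKM in *Fgfr2+/+* condylar cartilage, from 10005 to 14092 fragments, against 5.82, 4.80 and 7.36 FPKM in bone and 4.31, 13.0 and 9.36 FPKM in MC. *Fgfr2+/S252W* condylar cartilage had 109, 104 and 135 FPKM. No library of another tissue exceeded 24.4 FPKM, so the 6 condylar libraries stood apart. Bone was 4.40 lower than condylar cartilage on the log2 scale, a 21.1-fold difference (log2 difference -4.40, SE 0.29, limma adjusted p = 6.33e-10). Condylar cartilage was 4.05 higher than MC (limma, SE 0.30, adjusted p = 4.37e-09). Bone and MC overlapped (log2 difference -0.35, 95% interval -1.04 to 0.34, limma adjusted p = 0.440), and without MC library 1 *Cspg4* was lower in bone (log2 difference -0.88, limma adjusted p = 0.0229). Among markers fixed for chondrocytes, 8 of 8 tested genes were likewise higher in condylar cartilage than in bone and MC, and their summed level was 6352 to 7606 FPKM in condylar cartilage, 81.6 to 1989 FPKM in MC and 39.6 to 107 FPKM in bone. Their part in the level of *Cspg4* was not tested.

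**Figure D2:**
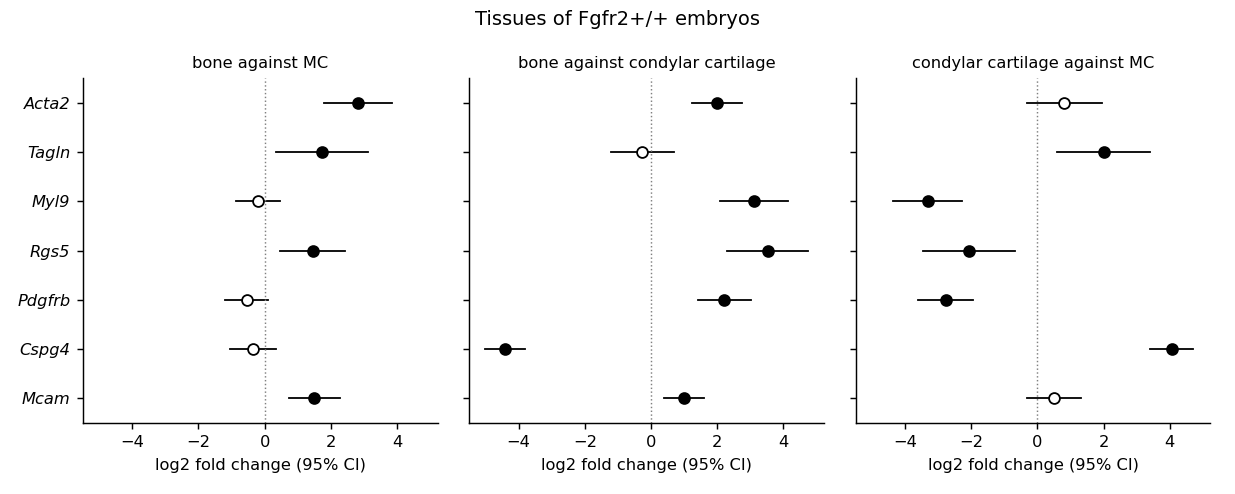
Differences between the tissues of *Fgfr2+/+* embryos for the 7 tested genes, as log2 fold change of the first named tissue over the second (horizontal axes), with 95% confidence intervals from limma (n = 3 libraries per tissue). Filled points have an adjusted p below 0.05. *Cspg4* lies far to the left for bone against condylar cartilage and far to the right for condylar cartilage against MC, while *Rgs5*, *Pdgfrb* and *Myl9* lie on the other side of 0.

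In all, 4 of the 7 tested members passed between bone and MC, all higher in bone, where 34.0% of all genes passed in either direction (18.1% higher and 15.9% lower). Between bone and condylar cartilage, 5 were higher in bone and *Cspg4* was lower, where 37.4% of all genes passed (19.4% with bone higher). Between condylar cartilage and MC, *Tagln* and *Cspg4* were higher and *Myl9*, *Rgs5* and *Pdgfrb* were lower in condylar cartilage, where 45.0% of all genes passed (22.9% and 22.1%). In the same order, groups did not overlap in 21.6%, 26.1% and 24.6% of all genes with the first tissue higher and in 18.8%, 25.6% and 23.0% with it lower, and 43.9%, 45.4% and 51.8% had an unadjusted p below 0.05. The median log2 difference over the 7 members was 1.45, 2.00 and 0.50 in these comparisons, against 0.02, 0.00 and 0.02 over all genes. edgeR's quasi-likelihood test and DESeq2 each called 3, 6 and 4 members. As the label numbers were read as marking 1 embryo across the 3 tissues, the embryo was also fitted as a block, and the calls of every tested member other than *Tagln* were on the same side of the threshold. Summed endothelial markers were highest in bone and lowest in condylar cartilage, an order shared by *Rgs5* in *Fgfr2+/+* means and by no other tested member. In these means *Acta2* and *Mcam* were lowest in MC, *Myl9* and *Pdgfrb* highest in MC, and *Tagln* and *Cspg4* highest in condylar cartilage. In *Fgfr2+/S252W* embryos *Rgs5* was higher in MC than in bone. The summed endothelial level over both genotypes was 63.3 to 85.0 FPKM in bone, 12.1 to 38.0 FPKM in MC and 3.22 to 9.16 FPKM in condylar cartilage. All 6 tested genes of that list were higher in bone than in condylar cartilage, and 5 were higher in bone than in MC. Their part in the differences of *Rgs5*, *Mcam* and *Pdgfrb* was not tested.

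Further genes of the same pathways were taken from fixed lists. Of 14 other pericyte genes, 7 were tested, and between bone and condylar cartilage 5 were higher in bone and 2 were lower. *Kcnj8* and *Abcc9*, the subunits of the potassium channel of pericytes, were higher by 4.63 and 4.89 on the log2 scale, *Gucy1a1*, a subunit of the nitric oxide receptor, by 3.99, *Notch3*, the Notch receptor of mural cells, by 2.59 and *Anpep*, an aminopeptidase, by 0.73. The 2 genes that were lower in bone, *Cox4i2* (log2 difference -2.15, limma adjusted p = 1.16e-04) and *Ndufa4l2* (log2 difference -2.72, limma adjusted p = 6.57e-05), encode hypoxia-responsive relatives of subunits of the respiratory chain. They had 22.1 ± 2.78 and 21.4 ± 1.46 FPKM (SD, n = 3) in *Fgfr2+/+* condylar cartilage against 4.97 ± 1.42 and 3.58 ± 2.09 FPKM in bone. The pericyte list thus divided in the same tissue as *Cspg4* and *Rgs5*. In condylar cartilage against MC, *Cox4i2*, *Ndufa4l2* and *Anpep* were higher and *Kcnj8*, *Abcc9* and *Notch3* were lower in condylar cartilage. Between bone and MC, *Cox4i2*, *Anpep* and *Gucy1a1* were higher in bone. *Vtn*, a gene of brain pericytes, and *Ppp1r14a*, a phosphatase inhibitor of smooth muscle, were at 0 in 17 of 18 libraries each.

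Of 14 other contractile genes, 9 were tested. Between bone and condylar cartilage, *Mylk*, the myosin light chain kinase, *Cald1*, *Tpm1*, *Tpm2* and *Vcl* were higher in bone, by 0.83 to 1.56 on the log2 scale, and *Smtn*, the gene of smoothelin, was lower (log2 difference -1.38, limma adjusted p = 5.43e-05). Between bone and MC, *Mylk*, *Tpm2* and *Actg2* were higher and *Smtn* and *Tpm1* were lower in bone. *Cald1*, *Tpm1* and *Vcl* were lower in condylar cartilage than in MC. *Actg2*, the γ smooth muscle actin, was higher in condylar cartilage than in MC (limma adjusted p = 4.18e-05), with 3.30 ± 0.706 FPKM (SD, n = 3) in *Fgfr2+/+* condylar cartilage and a level of 0 in 4 of the 6 MC libraries. Most of these genes also serve the cytoskeleton of other cells. *Smtn* had medians of 19.5 FPKM in condylar cartilage and 15.4 FPKM in MC, where *Myh11* and *Cnn1* stayed under 1 FPKM. Of 13 genes listed for the recruitment of mural cells, 10 were tested, and 8 were higher in bone than in condylar cartilage: *Pdgfra*, *Angpt1*, *Angpt2*, *Tgfbr2*, *Eng*, *S1pr1*, *Jag1* and *Ednra*. Of these, *Pdgfra* is also on the fibroblast list. *Pdgfb*, the ligand of PDGFRβ, was not kept by the filter and had a median of 2.95 FPKM in bone, 1.12 FPKM in MC and 0.0552 FPKM in condylar cartilage. Between bone and MC, *Angpt1*, *Angpt2*, *Tgfb1* and *S1pr1* were higher and the Notch ligand *Jag1* was lower in bone. *Pdgfra*, *Tgfbr2*, *Eng*, *S1pr1*, *Jag1* and *Ednra* were lower in condylar cartilage than in MC. A filter over 18 libraries favors genes found in several tissues, so the genes left out include several seen mainly in bone, such as *Heyl*, with a median of 5.21 FPKM in bone, 0.946 FPKM in MC and 0.318 FPKM in condylar cartilage.

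The effect of the *Fgfr2* S252W mutation was then examined in each tissue. In mandibular bone *Acta2*, *Rgs5*, *Myl9* and *Tagln* had lower levels in *Fgfr2+/S252W* than in *Fgfr2+/+* embryos in every library, but with 18 libraries none of the 7 members passed the threshold. *Acta2* had 10.1, 10.4 and 8.23 FPKM in *Fgfr2+/S252W* bone, from 274 to 417 fragments, against 23.8, 23.6 and 17.2 FPKM in *Fgfr2+/+* bone. *Rgs5* had 3.74, 4.49 and 4.48 FPKM against 15.96, 10.4 and 5.38 FPKM. The *Fgfr2+/S252W* libraries lay close together, and *Fgfr2+/+* library 3 was the nearest to them in both genes. *Myl9* had 16.2, 18.5 and 15.4 FPKM against 29.8, 26.3 and 19.7 FPKM. *Tagln* had 1.65, 1.93 and 2.13 FPKM against 2.83, 2.54 and 2.24 FPKM, so that the gap between its groups was smaller than the SD within either.

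With 18 libraries, the log2 fold change of *Acta2* was -1.15 (95% interval -1.77 to -0.52, limma adjusted p = 0.191), at rank 62 of all genes by p. That of *Rgs5* was -1.17 (95% interval -1.93 to -0.41, limma adjusted p = 0.331), at rank 151. For *Myl9* it was -0.57 (limma adjusted p = 0.659) and for *Tagln* -0.41 (limma adjusted p = 0.903). An adjusted p below 0.05 was reached by 0 of the 7 members and by 0.0872% of all genes (0.0349% higher and 0.0523% lower), and an unadjusted p below 0.05 by *Acta2* and *Rgs5* and by 8.13% of all genes. edgeR's quasi-likelihood test and DESeq2 also called 0 members. Groups without overlap were lower in *Fgfr2+/S252W* bone in these 4 members and in 9.70% of all genes. The median log2 fold change was -0.41 over the 7 members and -0.00 over all genes.

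Of the other pericyte genes in bone, *Pdgfrb* and *Mcam* overlapped between the genotypes and *Cspg4* did not. *Pdgfrb* had 10.2, 8.84 and 8.35 FPKM in *Fgfr2+/S252W* and 8.42, 7.65 and 9.78 FPKM in *Fgfr2+/+* bone, a log2 fold change of 0.08 (95% interval -0.53 to 0.68). *Mcam* had 9.71, 8.06 and 7.54 FPKM against 8.46, 10.2 and 9.69 FPKM, with a log2 fold change of -0.17 (95% interval -0.69 to 0.36). *Cspg4* was higher in every *Fgfr2+/S252W* library, at 7.67, 7.43 and 8.10 FPKM against 5.82, 4.80 and 7.36 FPKM, with a log2 fold change of 0.38 that did not pass (limma adjusted p = 0.841). Groups without overlap were higher in 10.7% of all genes. The chondrocyte markers had a summed level of 83.2 to 107 FPKM in *Fgfr2+/S252W* and 39.6 to 81.4 FPKM in *Fgfr2+/+* bone. Of the 8 tested, 0 passed in limma and 1 had an unadjusted p below 0.05, *Col2a1*, the gene of type II collagen, at 54.4 ± 10.2 against 20.7 ± 13.7 FPKM (SD, n = 3), which made up most of the difference in the sums. The list itself was divided, with 4 positive and 4 negative log2 fold changes, a median of 0.08, 2 genes higher and 1 lower without overlap, the latter *Acan*, the gene of aggrecan, at 0.214 against 0.686 FPKM. Their part in the level of *Cspg4* in bone was not tested.

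**Figure D3:**
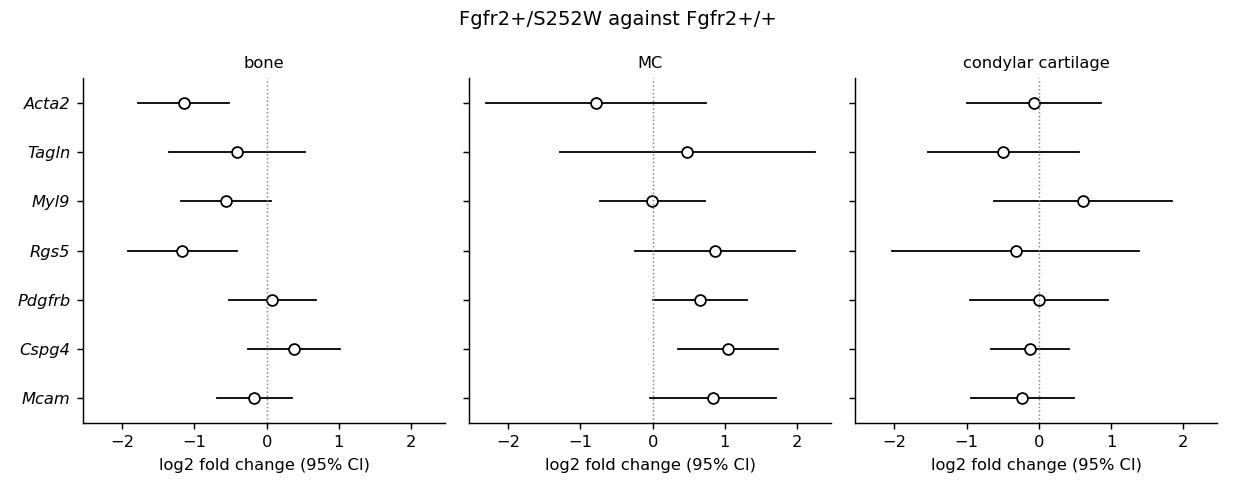
Log2 fold change of *Fgfr2+/S252W* over *Fgfr2+/+* (horizontal axes) for the 7 tested genes in each tissue, with 95% confidence intervals from limma (n = 3 libraries per group). Open points did not pass an adjusted p of 0.05, which holds for every point. The intervals of *Acta2* and *Rgs5* lie below 0 in bone, at -1.15 and -1.17, and those of *Cspg4* and *Pdgfrb* lie above 0 in MC.

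Whether a member passed in bone depended on which libraries were fitted and how they were weighted. When the filter, normalization and spread came from the 6 bone libraries alone, *Acta2* passed with a nearly equal log2 fold change of -1.16 (limma, SE 0.17, adjusted p = 0.0100), and 1.14% of 12322 genes passed. In that fit *Rgs5* had an adjusted p of 0.0956, *Myl9* of 0.145 and *Cspg4* of 0.254 (limma). With 18 libraries and sample quality weights, *Acta2* (adjusted p = 0.00269, limma) and *Rgs5* (adjusted p = 0.00408, limma) passed. Many more of all genes also passed with these weights than without them, with the counts given in the last section. The log2 fold change of *Rgs5* with 18 libraries was -0.79 without *Fgfr2+/+* library 1 and -1.61 without library 3, where it passed (limma adjusted p = 0.0333). Without library 3 the log2 fold change of *Acta2* was -1.31 (limma adjusted p = 0.0633). Library 3 was the *Fgfr2+/+* library nearest to *Fgfr2+/S252W*, so that leaving it out widened the difference. In the 6 bone libraries alone, each library was also left out in turn, for the 5 other than library 3 as a choice made after seeing the data. *Acta2* passed 3 times out of 6 (limma, adjusted p from 3.66e-04 to 0.0614). The calls of *Rgs5* (adjusted p from 6.13e-04 to 0.354), *Myl9* (from 0.00707 to 0.405) and *Cspg4* (from 0.0247 to 0.549) were made in 1 of the 6 limma fits each, that without library 3, where 11.4% of genes passed. In the other 5 fits 0.0830% to 0.677% of genes passed. *Tagln* passed in no fit that was run. In all fits the direction of *Acta2*, *Rgs5*, *Myl9* and *Tagln* in bone was the same.

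**Figure D4:**
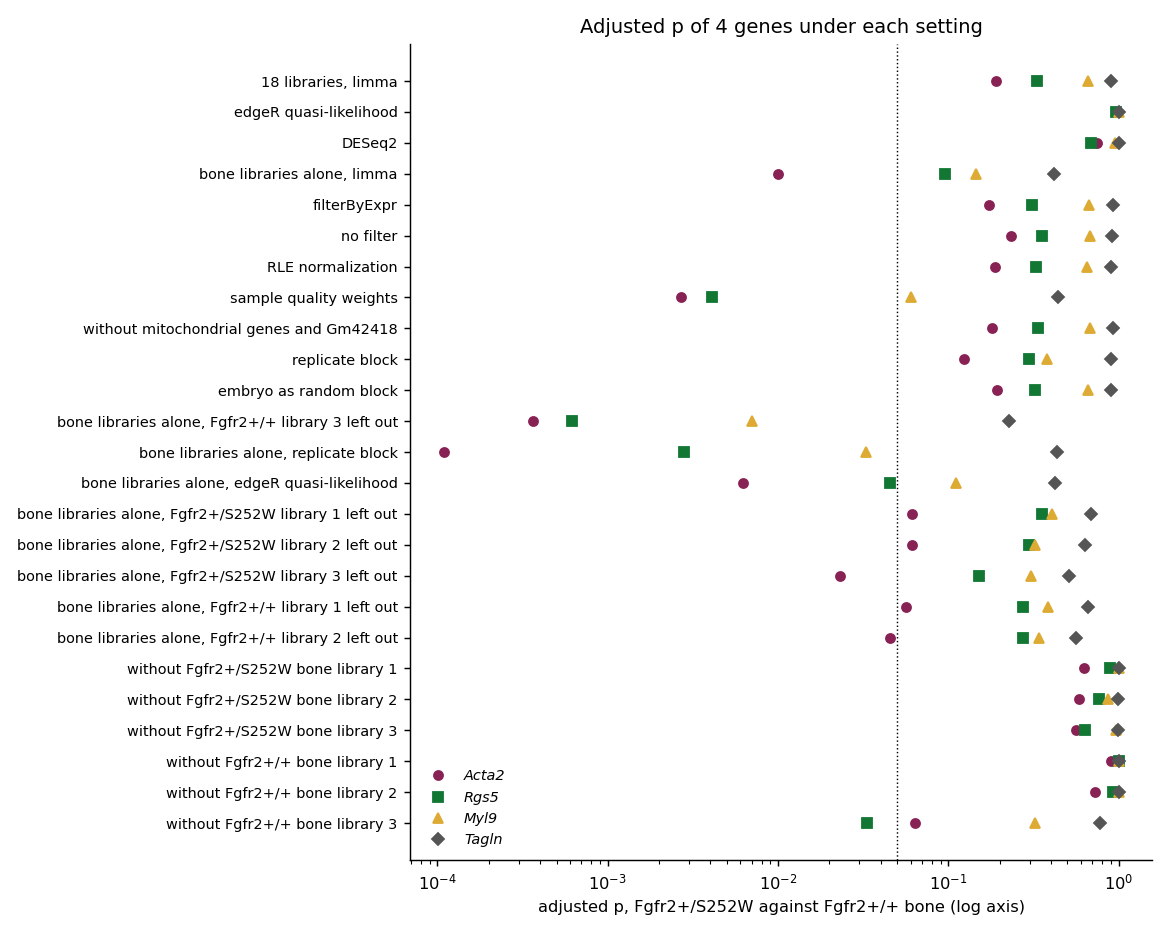
Adjusted p (horizontal axis, log scale) for *Fgfr2+/S252W* against *Fgfr2+/+* bone under each setting (vertical axis), for *Acta2*, *Rgs5*, *Myl9* and *Tagln*. The dotted line marks 0.05. *Acta2* lies left of the line with sample quality weights, with all 6 bone libraries alone (by limma, by edgeR and with a block that pairs different embryos by number only) and in 3 of the 6 fits of bone alone that left 1 library out, and *Tagln* lies right of it throughout.

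Markers of other cell types were also compared between the genotypes in bone. The summed level of the skeletal muscle list was 114, 108 and 14.8 FPKM in *Fgfr2+/+* bone libraries 1, 2 and 3 and 1.35, 4.88 and 15.4 FPKM in *Fgfr2+/S252W* bone, so that *Fgfr2+/+* library 3 was again nearest to *Fgfr2+/S252W*. All 4 tested genes of that list had lower values there (log2 fold change -3.67 to -2.87), with 0 of 4 past the threshold in limma, edgeR or DESeq2 and 4 of 4 at an unadjusted p below 0.05 in each of these tools. *Tnnc2* was at 0 in all 6 bone libraries and *Mb* in 3. The red blood cell list summed to 1632 to 1961 FPKM in *Fgfr2+/+* and 406 to 773 FPKM in *Fgfr2+/S252W* bone without overlap. Of its 5 tested genes, 0 passed with 18 libraries in limma, edgeR or DESeq2, 5 had an unadjusted p below 0.05 in limma, and 5 of 6 were lower in the fit of the bone libraries alone. The macrophage and osteoclast list went the other way, at 502 to 630 FPKM in *Fgfr2+/+* and 827 to 1113 FPKM in *Fgfr2+/S252W* bone. Of its 7 tested genes, 5 had positive values, and *Lyz2*, the macrophage lysozyme, was the 1 that passed and was lower (log2 fold change -1.47, limma adjusted p = 0.0483). When only bone libraries were fitted, all 7 passed: *Csf1r*, *Cd68*, *Ctsk*, *Acp5* and *Mmp9*, which osteoclasts express, were higher by 0.72 to 1.20 on the log2 scale, and *Lyz2* (-1.48) and *C1qb* (-2.26), a complement gene of macrophages, were lower (limma adjusted p from 0.0100 to 0.0460). The osteoblast list (4135 to 8020 FPKM over the 6 bone libraries), the fibroblast list (838 to 1132 FPKM) and the Schwann cell list (0.818 to 2.88 FPKM) overlapped between the genotypes in their sums. Within the osteoblast list, *Dmp1*, a gene of osteocytes, had 110 against 50.9 FPKM, *Bglap* 43.6 against 19.2 FPKM and *Ibsp*, bone sialoprotein, 1829 against 2998 FPKM in *Fgfr2+/S252W* and *Fgfr2+/+* bone, each without overlap and none past the threshold. Within the fibroblast list, 0 of 7 tested genes passed with 18 libraries, and in the bone libraries alone *Mfap4* (log2 fold change -1.15, limma adjusted p = 0.00428) and *Fbn1* (log2 fold change -0.80, limma adjusted p = 0.0460), genes of elastic microfibrils, were lower, as 2 of 8. The endothelial list overlapped, at 66.9 to 85.0 FPKM against 63.3 to 70.8 FPKM, with 0 of 6 genes past the threshold by limma, edgeR or DESeq2 and 1 of 6 at an unadjusted p below 0.05 in limma. All 6 had negative log2 fold changes, and 3 of 6 were lower without overlap, as were 9.70% of all genes. In the fit of the bone libraries alone, 1 of its 12 genes passed, *Egfl7*, a secreted protein of endothelium (log2 fold change -0.84, limma adjusted p = 0.0436). Library composition differed too. The noncoding RNA *Gm42418* took 8.57% to 9.33% of the fragments in *Fgfr2+/+* and 5.58% to 6.49% in *Fgfr2+/S252W* bone, and *Fgfr2+/+* libraries 1 and 2, the highest in *Acta2*, *Rgs5* and *Myl9*, had the largest mitochondrial shares. With mitochondrial genes and *Gm42418* left out, the log2 fold change was -1.13 for *Acta2* and -1.14 for *Rgs5*. The part of muscle, blood, vessel, fibroblast or macrophage cells in the levels of *Acta2*, *Rgs5* and *Myl9* was not tested.

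**Figure D5:**
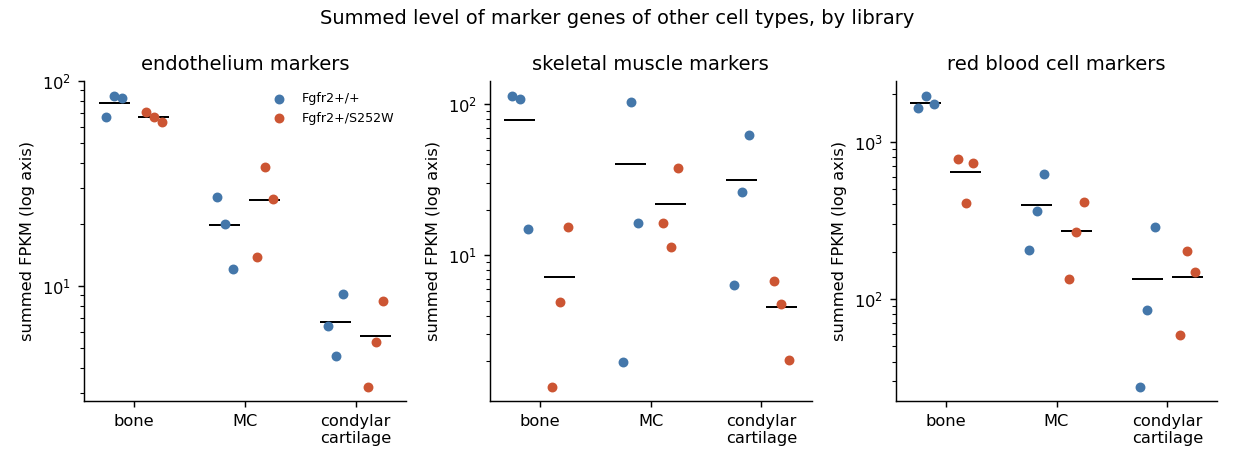
Summed level of marker genes of endothelium, skeletal muscle and red blood cells (vertical axes, FPKM, log scale) in each library of the 3 tissues. Points are libraries, blue for *Fgfr2+/+* and red for *Fgfr2+/S252W*, and bars are means of 3. In bone the red blood cell points do not overlap between genotypes, at 1632 to 1961 against 406 to 773 FPKM, and the endothelial points do.

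The wider lists gave no call in bone with 18 libraries. Of the 9 contractile genes tested, 0 passed in limma, edgeR or DESeq2, and 3, all lower in *Fgfr2+/S252W* bone, had an unadjusted p below 0.05 in limma. The share of all genes with such a p in bone, given above with the members, applies to this count and to those of the lists below. Of the 9, 7 had negative log2 fold changes and 4 were lower without overlap, as were 9.70% of all genes. Those with the smallest p were *Actg2*, at 0.521 ± 0.386 FPKM against 1.74 ± 0.496 FPKM (SD, n = 3, limma adjusted p = 0.294), and *Des*, at 1.09 ± 0.138 against 3.35 ± 2.01 FPKM (limma adjusted p = 0.605), the gene of desmin, which skeletal muscle also expresses. Of the 7 pericyte genes tested, 0 passed by any of these tools and 3 had an unadjusted p below 0.05 in limma. The smallest p belonged to *Anpep*, at 50.3 ± 3.84 against 29.0 ± 7.51 FPKM (limma adjusted p = 0.208), and *Kcnj8*, at 2.00 ± 0.0876 against 3.86 ± 0.708 FPKM (limma adjusted p = 0.594). Of the 7, 6 had negative log2 fold changes and 3 were lower without overlap, as were 9.70% of all genes, and *Anpep* was the 1 gene with a positive value. In the fit of the bone libraries alone *Anpep* passed (log2 fold change 0.82, limma adjusted p = 0.0460), as 1 of 11 pericyte genes tested there. *Heyl* (0.22), *Foxs1* (0.23), *Gja4* (0.34) and *Gucy1b1* (0.29), which the filter over 18 libraries had left out, were also positive there. The rest of the 11 were negative. The whole pericyte list summed to 80.5 to 90.6 FPKM in *Fgfr2+/S252W* and 65.4 to 79.2 FPKM in *Fgfr2+/+* bone without overlap. *Anpep* was the largest part of these sums. Of the 10 recruitment genes tested, 0 passed in any of the 3 tools and 0 had an unadjusted p below 0.05, and the smallest p belonged to *Pdgfra*, at 53.0 ± 10.6 against 36.6 ± 13.0 FPKM, and *Tgfbr2*, at 14.8 ± 1.05 against 11.9 ± 1.49 FPKM.

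In MC the 4 pericyte members had positive log2 fold changes, and no member passed. *Pdgfrb* had 18.4, 21.1 and 20.1 FPKM in *Fgfr2+/S252W* MC against 10.7, 15.8 and 12.3 FPKM, and *Mcam* had 6.65, 5.38 and 5.56 FPKM against 4.26, 3.13 and 2.27 FPKM. Both were higher in *Fgfr2+/S252W* MC without overlap, as were 6.71% of all genes, with 6.67% lower. Their log2 fold changes were 0.65 (95% interval 0.00 to 1.31, limma adjusted p = 0.324) and 0.84 (95% interval -0.03 to 1.71, limma adjusted p = 0.342). *Cspg4* had 24.4, 13.7 and 10.7 FPKM against 4.31, 13.0 and 9.36 FPKM, with overlap and a log2 fold change of 1.04 (limma, SE 0.33, adjusted p = 0.169). It had the smallest p of the members in MC, and single libraries decided its size. When 1 library was left out, the log2 fold change was lowest without *Fgfr2+/+* library 1 (0.52, limma adjusted p = 0.471), 0.68 without *Fgfr2+/S252W* library 1 (limma adjusted p = 0.523) and highest without *Fgfr2+/+* library 2 (1.38, limma adjusted p = 0.0474), the 1 of 6 such fits in which it passed. *Rgs5* had 4.93, 6.71 and 7.95 FPKM against 5.38, 2.71 and 2.15 FPKM, with a log2 fold change of 0.86 (95% interval -0.24 to 1.96).

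The contractile genes varied in MC more than they differed between the genotypes. *Acta2* had 0.675, 2.40 and 3.83 FPKM against 2.35, 9.13 and 1.47 FPKM, *Myl9* had 21.3, 39.7 and 29.8 FPKM against 15.1, 56.1 and 36.6 FPKM, and *Tagln* had 2.61, 0.426 and 0.662 FPKM against 0.176, 2.89 and 1.30 FPKM. All 3 overlapped. Among the 7 members, 0 passed in limma, edgeR or DESeq2 and 2, *Pdgfrb* and *Cspg4*, had an unadjusted p below 0.05 in limma, where 0% and 15.4% of all genes did. The summed chondrocyte markers were 463 to 1989 FPKM in *Fgfr2+/S252W* and 81.6 to 725 FPKM in *Fgfr2+/+* MC, with overlap. All 8 tested genes of that list had positive log2 fold changes, with a median of 1.14, and 4 had an unadjusted p below 0.05 in limma and 0 in edgeR or DESeq2, with 0 past the threshold in each of the 3 tools. Their part in the level of *Cspg4* was not tested. The Schwann cell list summed to 6.17 to 11.0 FPKM in *Fgfr2+/S252W* and 1.58 to 3.22 FPKM in *Fgfr2+/+* MC without overlap, most of it *S100b*, which chondrocytes also express. In the macrophage and osteoclast list, whose sums overlapped (83.2 to 95.1 against 67.3 to 115 FPKM), *C1qb* (20.5 ± 3.56 against 8.52 ± 7.27 FPKM) and *Lyz2* (17.0 ± 1.21 against 6.12 ± 5.17 FPKM) lay higher and *Acp5* and *Mmp9* lower in *Fgfr2+/S252W* MC (SD, n = 3), without overlap and with none past the threshold. The fibroblast list overlapped in its sums (742 to 935 against 648 to 782 FPKM), with 6 of 7 tested genes at positive log2 fold changes. Without overlap, 3 of the 7 were higher and 1 was lower, where the shares of all genes are those given above for *Pdgfrb* and *Mcam*. Of the 7, 0 passed in limma, edgeR or DESeq2 while 1 had an unadjusted p below 0.05 in each. The part of these cell types in the levels of *Pdgfrb* and *Mcam* was not tested.

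The wider lists gave no call in MC. Of 9 contractile, 7 pericyte and 10 recruitment genes tested, 0 passed in limma, edgeR or DESeq2, and 1, 0 and 2 had an unadjusted p below 0.05 in limma, where 15.4% of all genes had one. The smallest p-values among the contractile genes were those of *Cald1*, at 63.0 ± 3.40 in *Fgfr2+/S252W* against 51.0 ± 5.92 FPKM in *Fgfr2+/+* MC without overlap, and *Mylk*, at 2.59 ± 0.950 against 3.43 ± 0.770 FPKM (SD, n = 3). Among the pericyte genes they were those of *Cox4i2*, at 3.44 ± 0.346 against 2.25 ± 2.58 FPKM, and *Notch3*, at 2.60 ± 0.802 against 1.97 ± 0.448 FPKM. Among the recruitment genes they were those of *Ednra*, the endothelin receptor, at 28.5 ± 4.74 against 19.2 ± 12.9 FPKM, and *Tgfbr2*, at 22.2 ± 1.23 against 17.4 ± 6.37 FPKM. Of the genes named here, all but *Cald1* overlapped between the genotypes. The 7 pericyte genes divided by sign, with 4 positive and 3 negative log2 fold changes.

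In condylar cartilage 0 of the 7 members passed in limma, edgeR or DESeq2, 0 had an unadjusted p below 0.05, and every member overlapped between the genotypes. Over all genes 0% passed, 3.06% had an unadjusted p below 0.05, and 4.59% were higher and 5.17% lower without overlap. *Cspg4*, with 8485 to 14092 fragments per library the best measured member, had a log2 fold change of -0.12 (95% interval -0.66 to 0.41). *Myl9* had 4.75, 4.80 and 3.30 FPKM against 2.86, 2.28 and 3.52 FPKM, with the largest log2 fold change of the members there, 0.61 (95% interval -0.62 to 1.85). *Acta2* had 5.07, 6.66 and 3.46 FPKM against 2.91, 6.16 and 8.82 FPKM, and *Rgs5* had 0.850, 1.18 and 0.188 FPKM against 0.385, 0.629 and 2.56 FPKM. *Tagln* had 2.45, 2.33 and 1.54 FPKM, *Pdgfrb* 0.978, 2.20 and 3.89 FPKM and *Mcam* 5.85, 4.98 and 1.68 FPKM in *Fgfr2+/S252W* condylar cartilage. Of the same lists, 0 genes passed there in limma, edgeR or DESeq2, and 3 of 9 contractile, 0 of 7 pericyte and 0 of 10 recruitment genes had an unadjusted p below 0.05 in limma. These 3 were *Cald1*, at 39.6 ± 5.44 against 29.1 ± 3.11 FPKM, *Vcl*, the gene of vinculin, at 7.96 ± 2.34 against 4.83 ± 0.797 FPKM, and *Mylk*, at 4.22 ± 0.341 against 3.12 ± 0.434 FPKM (SD, n = 3), each higher in *Fgfr2+/S252W* without overlap, as were 4.59% of all genes. The smallest p-values of the other lists were those of *Kcnj8* (0.0195 ± 0.0338 against 0.349 ± 0.373 FPKM) and *Gucy1a1* (1.07 ± 1.05 against 1.13 ± 1.08 FPKM), and of *Pdgfra* (5.89 ± 4.14 against 3.64 ± 2.35 FPKM) and *Eng* (3.24 ± 0.676 against 2.28 ± 0.936 FPKM), all with overlap.

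The genotype effects were compared between tissues by the interaction of genotype and tissue. Between bone and MC, the effect on *Rgs5* differed most, with -2.03 on the log2 scale (limma, SE 0.64, adjusted p = 0.272), the only member with an unadjusted p below 0.05 in limma, where 10.9% of all genes had one. In *Fgfr2+/+* embryos the mean level of *Rgs5* was 10.6 ± 5.30 FPKM in bone and 3.41 ± 1.72 FPKM in MC, and in *Fgfr2+/S252W* embryos it was 4.24 ± 0.433 and 6.53 ± 1.52 FPKM (SD, n = 3). The order of bone and MC was thus reversed between the genotypes, without overlap in *Fgfr2+/S252W*, where bone lay below MC in 25.9% of all genes, and with bone library 3 level with MC library 1 in *Fgfr2+/+*. By limma 0 of 7 members passed in this interaction, where 0.0523% of all genes did (0.0174% higher and 0.0349% lower), and edgeR and DESeq2 also called 0. Between condylar cartilage and MC, the effect on *Cspg4* differed by -1.16 (limma, SE 0.42, adjusted p = 0.381), the only member of 7 with an unadjusted p below 0.05 in limma, where 9.51% of all genes had one, and 0 passed in any of the 3 tools. Between bone and condylar cartilage 0 members passed in any of the 3 tools and 0 had an unadjusted p below 0.05 in limma, where 3.00% of all genes had one, with *Acta2* at -1.08 (95% interval -2.20 to 0.03, limma adjusted p = 1.00). Of the wider lists, 0 genes passed in any interaction by the 3 tools. Given as the log2 difference between the 2 genotype effects, the smallest p-values for bone against MC were those of *Cald1* (-0.52) and *Actg2* (-2.36), of *Anpep* (1.09) and *Cox4i2* (-2.48), and of *Ednra* (-1.26) and *Tgfb1* (1.44), and 1 of 9 contractile, 2 of 7 pericyte and 0 of 10 recruitment genes had an unadjusted p below 0.05 in limma. For bone against condylar cartilage they were those of *Cald1* (-0.65) and *Mylk* (-0.71), of *Anpep* (0.73) and *Cox4i2* (-1.07), and of *Eng* (-0.88) and *Pdgfa* (-0.53), with 3, 1 and 0 below 0.05. For condylar cartilage against MC they were those of *Vcl* (1.07) and *Mylk* (0.83), of *Kcnj8* (-2.96) and *Cox4i2* (-1.41), and of *Angpt2* (-1.19) and *Tgfbr2* (-0.50), with 2, 0 and 1 below 0.05. In the interaction of bone and MC, *Mfap4* of the fibroblast list (-2.03, limma adjusted p = 0.0430) and *Lyz2* of the macrophage list (-3.37, limma adjusted p = 0.0292) passed, both with a lower genotype effect in bone than in MC.

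Over the 18 libraries, which share tissue and depth, the levels of *Myl9*, *Pdgfrb* and *Rgs5* ran together and against *Cspg4*. Pearson's r was 0.88 between *Myl9* and *Pdgfrb*, 0.79 between *Myl9* and *Rgs5* and -0.83 between *Rgs5* and *Cspg4*. After the 6 group means were subtracted, these values were 0.20, 0.19 and -0.30. Differences between the groups of tissue and genotype, not separated here, thus carried most of them. *Acta2* correlated at 0.05 with *Myl9* over the 18 libraries and at 0.58 after the group means were subtracted. *Tagln* and *Cspg4* correlated at 0.39 and 0.80 in the same way.

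The genes whose pattern was most like the mean of the 7 members over the 18 libraries were *Npl*, *Zc3hav1*, *S100a16*, *Lgals1* and *Smpd1*, with Pearson's r from 0.82 to 0.92. For *Acta2* they were *Gnpda2*, *1110008P14Rik*, *Stx12*, *Eif4ebp1* and *Atp5l*, from 0.87 to 0.90. For *Rgs5* they were *Thbd*, *Col4a2*, *Cenpi*, *Nusap1* and *Tuba1b*, from 0.92 to 0.94. With the group means subtracted, the closest were *Dkk3*, *Fxyd6*, *Slc25a28*, *Deaf1* and *Homer3* for the mean of the members, from 0.87 to 0.93. They were *Plp2*, *Tprgl*, *Vhl*, *Atp5l* and *Borcs6* for *Acta2*, from 0.87 to 0.92, and *Crabp1*, *Ptn*, *Thbd*, *Cenpi* and *Tk1* for *Rgs5*, from 0.88 to 0.94. *Thbd*, the gene of thrombomodulin, and *Cenpi*, a centromere gene, were in both lists of *Rgs5*. These are the highest correlations among all other tested genes and are given as a description.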

How the data were processed

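Tissue was taken by laser capture from unfixed cryosections, its RNA was amplified, and libraries were sequenced as read pairs. Per the file headers, the deposited values are raw counts of fragments per gene that the authors made with featureCounts 1.5.0-p1 on Ensembl 75 genes, with reads aligned to GRCm38 (mm10) by STAR, without strand and without fragments that match several places. Levels were computed here as FPKM from these counts, with TMM library sizes. Genes over 1 FPKM in 50% of the 18 libraries were fitted with voom and limma 3.58.1 as 6 group means (R 4.3.3), with Benjamini-Hochberg adjustment at 0.05. The alternatives were edgeR 4.0.16 (quasi-likelihood), DESeq2 1.42.0, the compared tissues alone, other filters, normalization or weights, blocks, and each library left out. The tests were checked on simulated counts. The count per library was 8218548 to 15585778 fragments, and intervals or limits from counts cover counting error only.

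The 9 members, the lists of contractile, pericyte and recruitment genes and the marker lists of endothelium, skeletal muscle, osteoblast, chondrocyte, fibroblast, red blood cell, macrophage and osteoclast, and Schwann cell were chosen with earlier results of these data known. Members were named throughout. Genes of the contractile, pericyte and recruitment lists were named where they passed or, where none passed, for the 2 smallest p-values, and the marker lists are given by sums and counts. *Heyl*, *Foxs1*, *Gja4*, *Gucy1b1*, *Pdgfb*, *Myocd*, *Vtn*, *Ppp1r14a*, *Tnnc2*, *Mb*, *Lyz2*, *Egfl7*, *Col2a1*, *Acan*, *Csf1r*, *Cd68*, *Ctsk*, *Acp5*, *Mmp9*, *C1qb*, *Dmp1*, *Bglap*, *Ibsp*, *Mfap4*, *Fbn1*, *S100b* and *Gm42418* were named after their values were seen. Libraries with the same number and genotype were read from the labels as 1 embryo, and the embryo was fitted as a block for comparisons of tissues. Deviations of the same embryo in 2 tissues correlated at -0.09 to 0.11, and those of the same number in both genotypes at -0.15 to 0.28, so numbers were not taken to pair the genotypes. Littermates were not assigned to litters here. There were 3 embryos per genotype, and the main fit treated the tissues of 1 embryo as independent. With 18 libraries, limma used 1 estimate of spread per gene, shared by all 6 groups. A p-value for bone thus also carries the spread within MC and condylar cartilage.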

Additional observations from a re-analysis of the deposited data

How the results depend on the processing

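With 18 libraries, 0 of 7 members passed between genotypes in bone. The count was 1 in the bone libraries alone, 2 with sample quality weights, 4 in the bone libraries alone without *Fgfr2+/+* library 3, and 0 to 1 when single libraries were left out of the 18. Fits chosen after seeing the data gave 3 (bone libraries alone with the replicate block, which pairs different embryos by number only), 2 (bone libraries alone with edgeR) and 0 to 1 (bone libraries alone without each of the other 5 libraries, 1 each without *Fgfr2+/S252W* library 3 and *Fgfr2+/+* library 2). With the replicate block on 18 libraries it was 0, as it was in MC and condylar cartilage, and the block gave 3 members for bone against MC, 6 for bone against condylar cartilage and 4 for condylar cartilage against MC. In bone, 10 genes in all passed with 18 libraries, 4 with edgeR, 16 with DESeq2, 21 with filterByExpr, 53 without a filter, 141 in the bone libraries alone, 187 there with edgeR, 554 there with the block, 1370 there without *Fgfr2+/+* library 3, 10 to 81 there without each other library, 589 with quality weights, and 0 to 91 when a library was left out. In MC 0 genes passed, against 90 with edgeR, 417 with DESeq2, 45 without a filter and 138 without *Fgfr2+/+* library 2. The fits that leave out libraries have fewer samples. The other causes were not tested. Leaving out single libraries gave 2 to 5 members for bone against MC, 3 to 5 for condylar cartilage against MC and 0 to 1 for the genotypes in MC.

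No call reversed. Values that did not pass changed sign as follows, on the log2 scale. *Tagln* between genotypes in MC was -0.053 with edgeR, -0.12 with DESeq2 and -0.27 with quality weights, and *Myl9* there was 0.0026 with RLE normalization. With quality weights, *Acta2* was 0.33, *Rgs5* 0.56 and *Mcam* 0.047 between genotypes in condylar cartilage, and the difference in genotype effect between bone and condylar cartilage was -0.00089 for *Tagln*, -0.17 for *Pdgfrb* and -0.21 for *Mcam*. With the replicate block that of *Tagln* was -0.027. When single libraries were left out, the genotype effect in bone ranged from -0.0023 to 0.18 for *Pdgfrb*, and in the bone libraries alone it was -0.0076 without *Fgfr2+/S252W* library 1 and -0.011 without *Fgfr2+/+* library 2. In MC it ranged from -1.32 to 0.066 for *Acta2*, from -0.89 to 1.27 for *Tagln* and from -0.65 to 0.41 for *Myl9*. In condylar cartilage it ranged from -0.54 to 0.27 for *Acta2*, from -0.92 to 0.41 for *Rgs5*, from -0.57 to 0.62 for *Pdgfrb*, from -0.26 to 0.043 for *Cspg4* and from -0.58 to 0.21 for *Mcam*. The difference between bone and MC in genotype effect ranged from -1.20 to 0.18 for *Acta2*, from -1.67 to 0.49 for *Tagln* and from -0.96 to 0.093 for *Myl9*. Between bone and condylar cartilage it ranged from -0.28 to 0.35 for *Tagln*, from -0.54 to 0.65 for *Pdgfrb* and from -0.36 to 0.41 for *Mcam*, and between condylar cartilage and MC from -0.13 to 1.25 for *Acta2* and from -1.76 to 0.40 for *Tagln*. In *Fgfr2+/+* tissues, bone against MC ranged from -0.86 to 0.20 for *Myl9*, and bone against condylar cartilage from -0.55 to 0.087 for *Tagln*. Over all settings, 156 counts of members stayed within 1.5 times and 14 did not. Of the single values, 1089 kept their direction and side of the threshold, 29 lost a call, 19 gained one and 51 changed sign. With 3 to 31 fragments of *Tagln* per MC library and 0 to 13 of *Myh11* in any library, differences in these genes were not detectable at this depth unless large.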
